A study of Mus musculus with 6 samples.

Results

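The genes described here are 10 antioxidant and NRF2 target genes of mouse osteoblasts, *Nqo1*, *Hmox1*, *Gclc*, *Gclm*, *Txnrd1*, *Srxn1*, *Prdx1*, *Gpx3*, *Sod2* and *Cat*. They were chosen by name, with earlier results of these data known, and each symbol was matched to its Ensembl gene in the deposited table. All 10 were found among the 24016 genes listed there. After 24 h of corticosterone, *Gclc* was 80.0% higher than with vehicle, *Hmox1*, *Txnrd1* and *Srxn1* were 16.1% to 22.1% higher, and no member passed the test as lower. Only the call of *Gclc* held whichever single library was left out, and the *Hmox1* groups overlapped.

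NRF2, encoded by *Nfe2l2*, is a transcription factor that the adaptor KEAP1 holds in the cytoplasm and hands to the CUL3 ubiquitin ligase for degradation. Oxidants and electrophiles modify KEAP1, after which NRF2 accumulates, pairs with a small MAF protein and binds antioxidant response elements. The genes it drives make glutathione, reduce thioredoxin and peroxiredoxins, detoxify quinones and degrade heme. Superoxide dismutase, catalase and glutathione peroxidase remove superoxide and peroxides directly, and in many cells they answer to other factors besides NRF2. In bone, oxidative stress and long exposure to glucocorticoids are both associated with reduced osteoblast function.

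The cells were MC3T3-E1 subclone 4, a single clone of wild-type mouse preosteoblasts that forms a mineralizing matrix in culture. All cultures were differentiated for 6 days in 50 µg/ml ascorbic acid, itself an antioxidant, with β-glycerophosphate at 10 mM. Corticosterone is the main glucocorticoid of mice. For 24 h, the 3 vehicle cultures received none (0 nM) and the 3 corticosterone cultures received 100 nM. The labels give all 6 samples the same treatment text, which lists 10 nM calcitriol beside corticosterone. It is therefore not certain that the vehicle cultures received calcitriol, and if they did not, the effects of the 2 agents cannot be told apart. The labels also give passages 6 to 12 in one field and 4 to 10 in another. The question put to this comparison is how the glucocorticoid changes gene expression in osteoblasts. The series describes the cultures as biological replicates, and the p-values below set differences between groups against the spread among them. In limma the variance of a gene is drawn toward a trend over genes of similar level. The limma p-values thus do not rest on the spread of that gene's own libraries alone.

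Every vehicle library held more reads on genes (19076586 to 25638645) than any corticosterone library (16020401 to 18992332). Values are given as normalized counts, which are reads divided by 1 size factor per library (0.782 to 1.30), so that 3 reads correspond to 2.32 to 3.84. Differences in counts between libraries of 1 group exceeded sampling noise, with a chi-square of 3.38 to 12.2 per degree of freedom, so no library was a copy of another. Vehicle replicate 2 stood farthest from the other vehicle libraries by this measure, which grows with depth, and had the highest vehicle value in 5 of the 10 members. The 4 genes used to check the treatment, which are textbook targets of the glucocorticoid receptor, all rose, with log2 fold changes of 1.49 for *Tsc22d3*, 2.02 for *Per1*, 2.46 for *Fkbp5* and 2.75 for *Sgk1*.

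The osteoblast markers were all present (10 of 10), and their summed normalized count was 1487020 to 1538430 with vehicle and 1287430 to 1346340 with corticosterone. Most of this sum is *Col1a1* and *Col1a2*, with log2 fold changes of -0.15 and -0.35, whereas *Runx2*, *Ibsp*, *Pth1r*, *Sp7* and *Bglap* fell by 1.16 to 1.87 on the log2 scale and *Spp1* rose by 0.23. Defining markers of other cell types were at or near 0 for adipocytes (1 of 5 in the table, summed 0 to 2.56), endothelium (2 of 3, 0 to 12.8) and muscle (1 of 3, 0 to 5.12). Chondrocyte markers (3 of 5, *Acan* and *Col9a1* missing) summed to 1197 to 1504 with vehicle and 780.4 to 951 with corticosterone, of which *Col2a1* fell by 0.80 and *Col10a1* rose by 0.73 on the log2 scale. Macrophage and osteoclast markers (4 of 7) summed to 1848 to 2008 and 1456 to 1521, nearly all of it *Ctsk*, while *Ptprc*, *Adgre1* and *Ocstamp* were missing from the table. Osteocyte markers (2 of 3, *Sost* missing) summed to 589.5 to 619 and 616 to 629.5. Nearly all of this was *Dmp1*, and *Mepe* had 0 to 2 reads per library. The osteoblast, chondrocyte and *Ctsk* signals thus moved with the treatment, and their part in the results below was not tested. In bulk RNA, fewer cells of a type and less RNA per cell cannot be told apart.

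Across the 10 members, 4 rose and 0 fell at a limma adjusted p under 0.05, adjusted over all genes tested. Of all genes tested, 8.49% were called higher and 8.2% lower. Few low genes can pass, so the fairer background is the genes with a mean normalized count of at least 100, of which 32.6% passed in either direction, against 4 of the 9 members above that level. No member passed the additional threshold of an absolute log2 fold change over 1, which 2.78% of all genes passed. The log2 fold change was positive in 8 of 10 members, with a median of 0.14 against -0.01 over all genes. In 6 members, all of them among the 9, the groups of libraries were fully separated, as they were in 49.0% of the genes at that level and in 29.6% of all genes. Both shares of members lay somewhat above these backgrounds, and that difference was not tested.

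The count of 4 depended on single libraries for all but *Gclc*. It was 4 without vehicle replicate 2, 1 without vehicle replicate 3, 2 without vehicle replicate 1 or corticosterone replicate 3, and 3 without corticosterone replicate 1 or 2. Over all genes, 50.9% of the calls were higher, and with libraries scaled to the same total this share was 40.3%, while the count in the members was 4 under both.

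**Figure D1:**
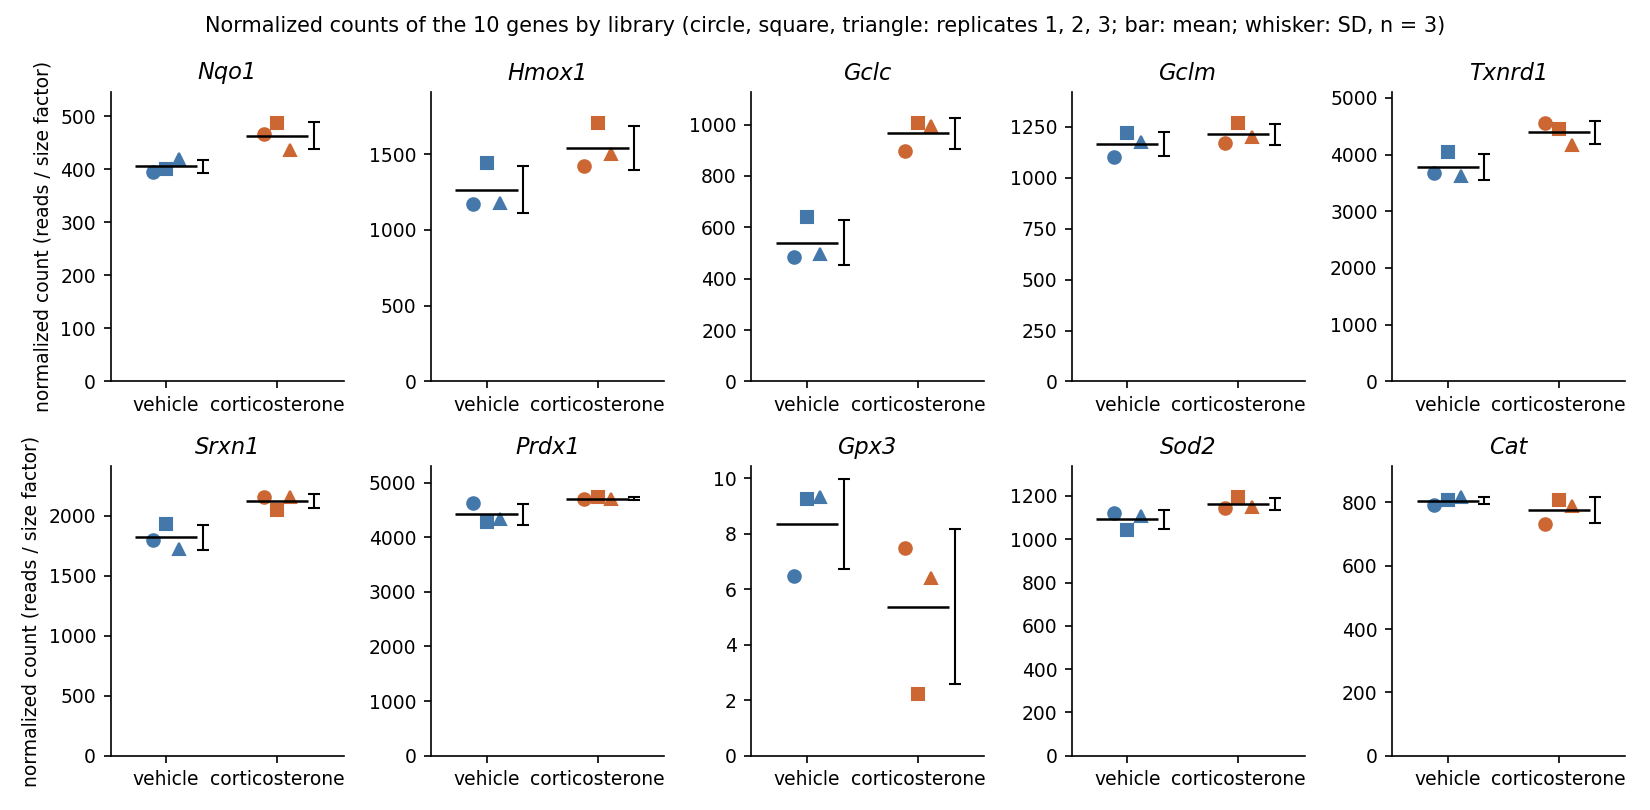
Normalized counts (reads divided by the size factor of the library, linear axes from 0) of the 10 genes in the 3 vehicle (blue) and 3 corticosterone (orange) libraries, with circle, square and triangle for replicates 1, 2 and 3, a bar for the mean and a whisker for the SD. *Gclc* shows the widest gap, 483 to 641 against 897 to 1006, and *Gpx3* lies below 10 in every library.

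Glutathione, the main small thiol of the cell, is made in 2 steps, the first of which joins glutamate to cysteine and limits the rate. The enzyme of that step, glutamate-cysteine ligase, consists of the catalytic subunit encoded by *Gclc* and the modifier subunit encoded by *Gclm*. *Gclc* (ENSMUSG00000032350, GRCm38 chr9:77754535-77794485, plus strand) had normalized counts of 483, 641 and 496 in vehicle replicates 1 to 3 and of 897, 1006 and 995 with corticosterone. All corticosterone libraries lay above all vehicle libraries, and vehicle replicate 2 was the vehicle library closest to them. The mean went from 540.4 ± 87.7 to 966 ± 60.0 (SD, n = 3), a log2 fold change of 0.85 ± 0.09 (SE) with a limma adjusted p of 3.3e-06. Its 95% interval ran from 0.66 to 1.04, that is from 1.58-fold to 2.06-fold. The gene kept this call in every one of the 20 alternative settings, and leaving out single libraries moved the log2 fold change from 0.77 without vehicle replicate 1 to 0.98 without vehicle replicate 2.

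*Gclm* (ENSMUSG00000028124, chr3:122245557-122270732, plus strand), the partner of *Gclc*, had 1103, 1219 and 1175 with vehicle and 1170.2, 1269 and 1201 with corticosterone. The groups overlapped, with vehicle replicate 2 above 2 of the corticosterone libraries. Its log2 fold change was 0.06 ± 0.06 (SE) with a limma adjusted p of 0.60 and a 95% interval of -0.06 to 0.18, that is from 0.959-fold to 1.13-fold. The ratio of *Gclc* to *Gclm*, both taken per kb of exon, was 0.732, 0.879 and 0.706 with vehicle and 1.28, 1.32 and 1.38 with corticosterone. The ratio was higher in each corticosterone library than in any vehicle library, with means of 0.772 ± 0.0934 and 1.33 ± 0.0519 (SD, n = 3). The log2 fold changes of the 2 subunits differed by 0.79, with an exact two-sided permutation p of 0.1, the smallest that 3 against 3 libraries can give. The annotated gene *Gm17494* overlaps *Gclm* by 296 bases on the opposite strand and *Gm6061*, which the table does not list, by 244 bases on the same strand. Whether counting used the strand is not given in the sources used here.

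*Nqo1* (ENSMUSG00000003849, chr8:107388225-107403206, minus strand) encodes a quinone reductase that is the customary readout of NRF2 activity. Its normalized counts were 395, 401 and 419.9 with vehicle and 466, 487 and 436 with corticosterone. The groups did not overlap, although corticosterone replicate 3 lay close to vehicle replicate 3. With a log2 fold change of 0.19 ± 0.07 (SE) and a limma adjusted p of 0.089, *Nqo1* did not pass the test, and its 95% interval of 0.04 to 0.35 stayed above 0 before adjustment.

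*Hmox1* (ENSMUSG00000005413, chr8:75093621-75100589, plus strand) encodes heme oxygenase, which opens heme to biliverdin, iron and carbon monoxide and is repressed by BACH1 until heme or NRF2 displaces it. It had 1174, 1446 and 1178 with vehicle and 1423, 1706 and 1499 with corticosterone. Replicate 2 was the highest library in both groups, and in vehicle it exceeded corticosterone replicate 1, so the groups overlapped. The log2 fold change was 0.29 ± 0.08 (SE) with a limma adjusted p of 0.018. The call was lost without vehicle replicate 1 (limma adjusted p of 0.15), vehicle replicate 3 (0.23), corticosterone replicate 2 (0.15) or corticosterone replicate 3 (0.12), and also without the variance trend (0.31).

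Thioredoxin reductase, encoded by *Txnrd1*, is a selenoprotein that uses NADPH to keep thioredoxin reduced, and peroxiredoxins draw on thioredoxin to reduce peroxides. *Txnrd1* (ENSMUSG00000020250, chr10:82833951-82897712, plus strand) had 3670.1, 4051 and 3629 with vehicle and 4557, 4452 and 4164 with corticosterone. The groups did not overlap, and the closest libraries were vehicle replicate 2 and corticosterone replicate 3. The log2 fold change was 0.22 ± 0.05 (SE) with a limma adjusted p of 0.0059. The limma adjusted p rose to 0.053 without vehicle replicate 1, to 0.10 without vehicle replicate 3 and to 0.064 without corticosterone replicate 1, and it was 0.055 after quantile normalization and 0.22 without the variance trend.

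*Srxn1* (ENSMUSG00000032802, chr2:152105516-152111376, plus strand) encodes sulfiredoxin, which restores peroxiredoxins whose catalytic cysteine has been overoxidized. Its normalized counts were 1800.2, 1932 and 1724 with vehicle and 2153, 2051 and 2153 with corticosterone. Every corticosterone library lay above the vehicle libraries. The log2 fold change was 0.22 ± 0.05 (SE) with a limma adjusted p of 0.0055, and the call was lost without vehicle replicate 3 (0.068), corticosterone replicate 3 (0.058) or the variance trend (0.17).

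*Prdx1* (ENSMUSG00000028691, chr4:116685544-116700822, plus strand), the abundant cytosolic peroxiredoxin on which sulfiredoxin acts, had 4634, 4284 and 4337 with vehicle and 4691, 4730.5 and 4696 with corticosterone. The corticosterone libraries were nearly equal and lay just above vehicle replicate 1. Its log2 fold change of 0.09 ± 0.04 (SE) did not pass the test (limma adjusted p of 0.17). Of the 31-base stretches of its transcripts, 15.4% also occur in transcripts of other genes, so part of its reads could have been assigned elsewhere.

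*Sod2* (ENSMUSG00000006818, chr17:13006846-13040063, plus strand) encodes the manganese superoxide dismutase of mitochondria, which turns superoxide into hydrogen peroxide. It had 1122, 1043.5 and 1109 with vehicle and 1146, 1194 and 1148 with corticosterone. The groups did not overlap, yet the gap was small, and the log2 fold change of 0.09 ± 0.05 (SE) had a limma adjusted p of 0.31 and a 95% interval of -0.02 to 0.20. Shared 31-base stretches made up 26.7% of its transcripts, the highest share among the members.

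*Cat* (ENSMUSG00000027187, chr2:103453849-103485160, minus strand) encodes catalase, the peroxisomal enzyme that splits hydrogen peroxide. With vehicle it had 793, 807 and 816, and with corticosterone 730.2, 808 and 789. Only corticosterone replicate 1 lay below the vehicle range. The log2 fold change was -0.05 ± 0.06 (SE) with a limma adjusted p of 0.66, and the 95% interval of -0.18 to 0.07 spanned 0.882-fold to 1.05-fold.

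*Gpx3* (ENSMUSG00000018339, chr11:54902453-54910377, plus strand) encodes a secreted glutathione peroxidase that is abundant in plasma. It had 6.49, 9.26 and 9.31 with vehicle and 7.49, 2.21 and 6.40 with corticosterone, from 2 to 12 reads per library. The groups overlapped, and corticosterone replicate 2 was below the level of 3 reads. At this depth a change was not detectable, since the log2 fold change of -0.78 ± 0.65 (SE) had a 95% interval of -2.17 to 0.61 and a limma adjusted p of 0.52.

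With 3 libraries against 3, the exact two-sided permutation test of a single gene cannot go below 0.1, which the 6 members without overlap reached. The other 4 had exact permutation p-values of 0.2 (*Hmox1* and *Gpx3*), 0.3 (*Cat*) and 0.5 (*Gclm*).

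**Figure D2:**
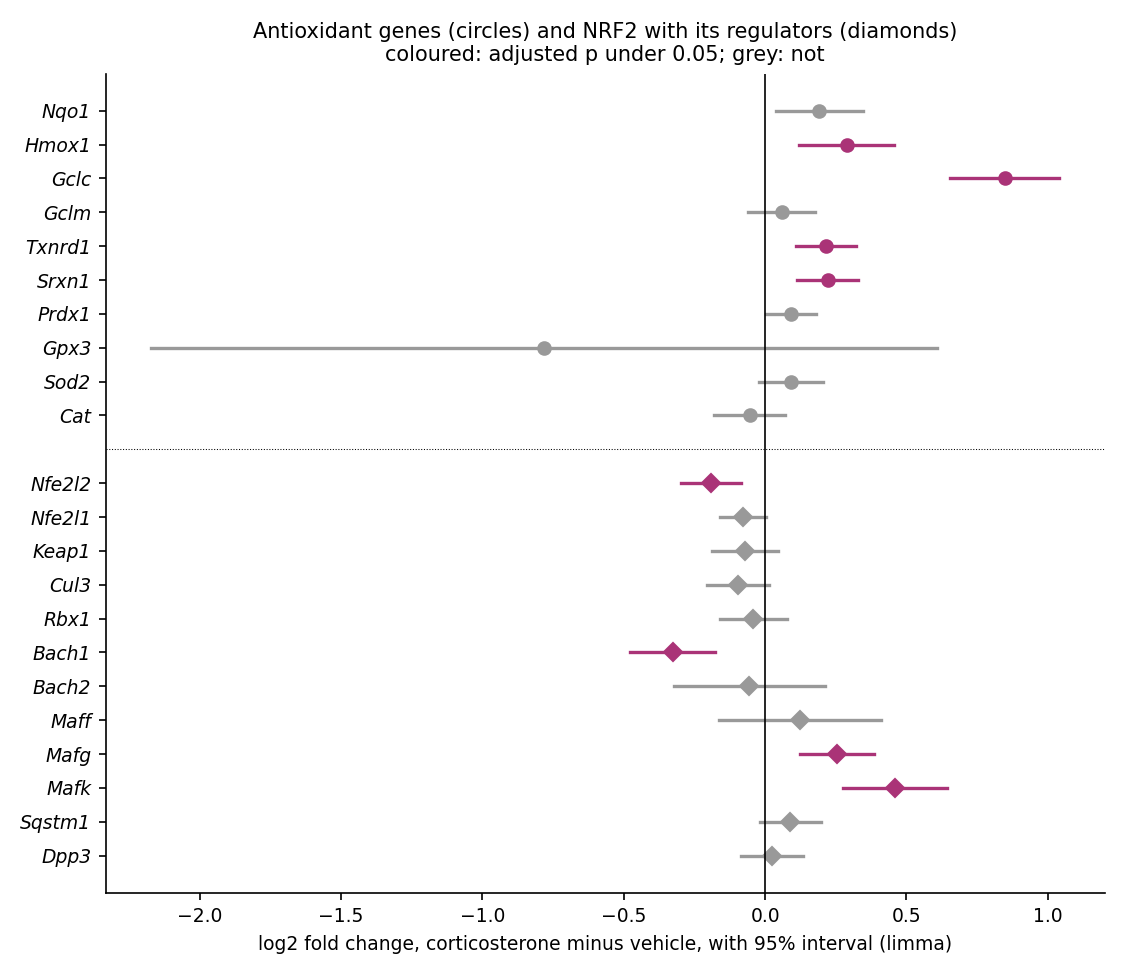
Log2 fold change, corticosterone minus vehicle, with its 95% interval from limma, for the 10 genes (circles) and for NRF2 and its regulators (diamonds), coloured where the adjusted p is under 0.05. Coloured circles are *Gclc* at 0.85 and *Hmox1*, *Txnrd1* and *Srxn1* between 0.22 and 0.29, whereas *Nfe2l2* and *Bach1* lie to the left of 0.

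Divided by the length of their merged exons, the vehicle levels of the members ran over a wide range. *Prdx1* was the highest, with a normalized count of 1452 ± 62.0 per kb of exon, followed by *Hmox1* at 723 ± 88.9, *Srxn1* at 645 ± 37.2 and *Txnrd1* at 534 ± 32.9. *Cat* (308 ± 4.43), *Nqo1* (261 ± 8.46), *Gclm* (185 ± 9.30), *Gclc* (143 ± 23.3) and *Sod2* (109 ± 4.21) came next on the same scale, and *Gpx3* was last at 4.61 ± 0.891. Among neighbours in this order, the vehicle libraries of *Hmox1* and *Srxn1* overlapped and the others did not. With corticosterone, *Gclc* (257 ± 15.9 per kb) stood above *Gclm* (193 ± 8.03), the reverse of the vehicle order, with no overlap in either group. *Nqo1* (298 ± 16.4) and *Cat* (297 ± 15.6) overlapped. The reversal rests on the merged exon lengths, and the transcript lengths in use were not measured. In normalized counts *Gclm* stayed above *Gclc* with corticosterone (means of 1213.5 and 966). Per kb of exon, 9 of the members had a level above that of 71.4% or more of all genes and *Gpx3* above that of 35.1%.

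**Figure D3:**
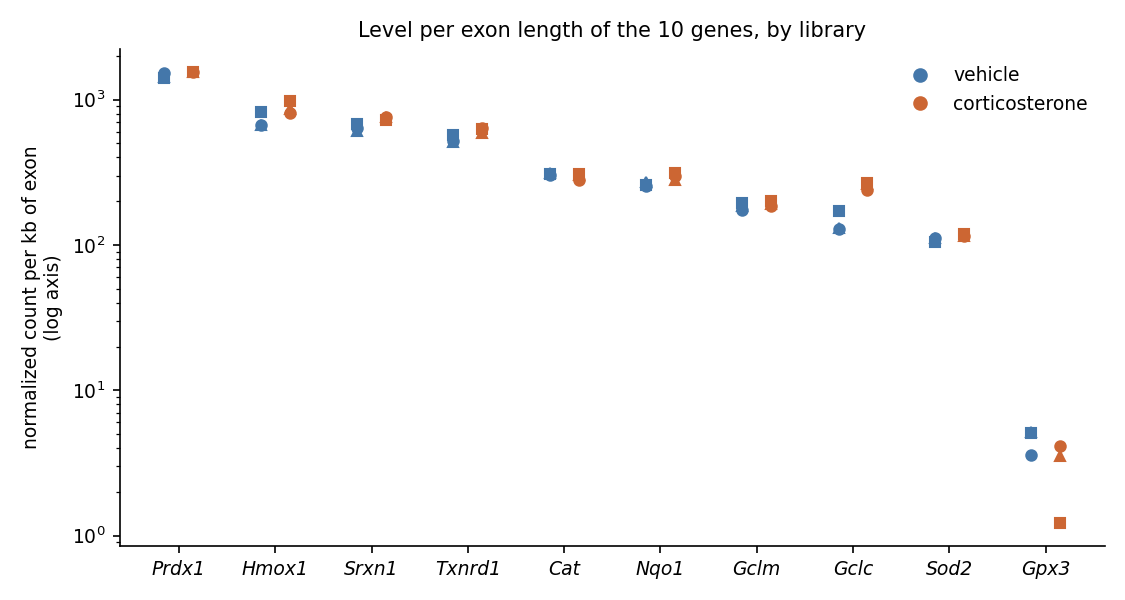
Normalized count per kb of merged exon (log axis) of the 10 genes in each vehicle (blue) and corticosterone (orange) library, ordered by the vehicle mean, with circle, square and triangle for replicates 1, 2 and 3. Levels run from about 1452 per kb for *Prdx1* to 4.61 per kb for *Gpx3*, and *Gclc* is the gene whose 2 groups lie farthest apart among those above 100 per kb.

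The promoters were read because the members are grouped as targets of a factor with a known binding sequence. RefSeq promoter windows of GRCm38.p6, from 250 bases before to 50 after the start site, were listed for 8 of the 10 members (10 windows, 3 of them for *Txnrd1*). None was listed for *Gclc* or *Hmox1*, so the promoters of these genes were not searched. The antioxidant response element core, TGACNNNGC on either strand, was present in *Gclm*, *Txnrd1*, *Srxn1* and *Prdx1*, 4 of the 8, and in 14.0% of the 27025 genes with a window. The AP-1 site TGANTCA was present in *Srxn1* and *Prdx1*, against 9.0% of genes. The glucocorticoid response element, searched as GNACA and TGTNC with 3 bases of any kind between, was in 0 of the 8 and in 0.54% of genes. With so low a share, its absence from 8 genes says nothing particular about them. These are matches of letters in a short window, not measured binding, and NRF2 sites of several of these genes are known to lie farther upstream.

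The matched stretches are shown 5′ to 3′ on the plus strand, which is the strand of each gene here, with the match in capitals. An antioxidant element core in capitals begins with GC and ends with GTCA because it lies on the other strand, and an AP-1 site reads TGAGTCA or TGACTCA. Numbers before each stretch are its genome position.
*Gclm* (chr3:122245413-122245441): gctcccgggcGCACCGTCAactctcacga
*Txnrd1* (chr10:82859104-82859132): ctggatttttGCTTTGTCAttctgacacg
*Srxn1* (chr2:152105412-152105438): tcggagggccTGAGTCAccacgctgtg
*Srxn1* (chr2:152105469-152105495): aaattcacccTGAGTCAgcggccgggc
*Srxn1* (chr2:152105542-152105570): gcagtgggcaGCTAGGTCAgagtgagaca
*Prdx1* (chr4:116685352-116685378): aacgaggaaaTGACTCAaagggcagtg
*Prdx1* (chr4:116685456-116685484): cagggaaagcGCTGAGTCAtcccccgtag

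In *Gclm* the core lies 126 to 134 bases before the start site, and in *Txnrd1* 84 to 92 bases before the start of 1 of its 3 windows. *Srxn1* carries AP-1 sites that begin 102 and 45 bases before the start and a core at bases 29 to 37 after it. The core was searched only with TGAC as its first letters. The *Srxn1* site at 45 bases, TGAGTCA followed by gc, was therefore counted as AP-1 alone. In *Prdx1* the core at 125 to 133 bases before the start overlaps an AP-1 site, and another AP-1 site begins 237 bases before it. Of the 4 genes that carry a core, *Txnrd1* and *Srxn1* were called higher, while *Gclm* (log2 fold change of 0.06) and *Prdx1* (0.09) were not.

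The factor itself and its partners were then read from the list of NRF2 and its regulators, of which 12 of 12 genes were measured, 2 rose, 2 fell and 8 did not pass the test (median log2 fold change of -0.05). All 12 had a mean of at least 100, and the share called, 33.3%, was close to the 32.6% of all genes at that level. *Nfe2l2* had 1899, 2096 and 1913 with vehicle and 1745, 1709.7 and 1712 with corticosterone. It was lower in every corticosterone library, with a log2 fold change of -0.19 ± 0.05 (SE) and a limma adjusted p of 0.013. *Bach1*, the repressor that competes for the same elements, fell from 448, 471 and 464 to 367, 356 and 380.0, a log2 fold change of -0.33 ± 0.07 (SE) with a limma adjusted p of 0.0034. The groups overlapped for neither gene.

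The small MAF proteins pair with either factor. *Mafk* rose from 285, 341 and 280.3 to 425, 414 and 402, with a log2 fold change of 0.46 ± 0.09 (SE) and a limma adjusted p of 0.0011. *Mafg* rose by 0.25 ± 0.06 (SE) on the log2 scale, with a limma adjusted p of 0.0076, from 1905, 2342 and 2052 to 2467, 2551 and 2470.3. In both genes all corticosterone libraries lay above the vehicle libraries. *Keap1* had a log2 fold change of -0.07 (limma adjusted p of 0.47), and *Nfe2l1*, a relative of NRF2 that also binds these elements, had -0.08 (limma adjusted p of 0.20). The *Nfe2l2* call was lost without vehicle replicate 3 (limma adjusted p of 0.050), corticosterone replicate 2 (0.059) or corticosterone replicate 3 (0.073), and that of *Mafg* without vehicle replicate 1 (0.067), vehicle replicate 3 (0.13), corticosterone replicate 2 (0.066) or corticosterone replicate 3 (0.081). Without the variance trend *Nfe2l2*, *Mafg* and *Mafk* were not called (limma adjusted p-values of 0.20, 0.24 and 0.075). *Nfe2l1* was called lower after scaling to the same total (-0.12, limma adjusted p of 0.034) or quantile normalization (-0.18, limma adjusted p of 0.0024).

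Beside *Gclc* and *Gclm*, 16 other genes of glutathione synthesis, recycling and use were measured, of which 6 rose, 1 fell and 9 did not pass (median log2 fold change of 0.12). The share called was 43.8% of all 16, against 16.7% of all genes. Of the 16, 13 had a mean of at least 100, where the background is 32.6%. The share of 43.8% includes genes below that level and is not a like comparison with 32.6%. *Gpx4*, the peroxidase that reduces lipid hydroperoxides in membranes, rose from 6568 ± 284 to 9974 ± 134 (SD, n = 3), a log2 fold change of 0.60. *Gpx1*, the main cytosolic glutathione peroxidase, rose by 0.43 on the log2 scale, from 3534 ± 99.6 to 4751 ± 21.0. *Ggt5*, a gamma-glutamyltransferase that cleaves extracellular glutathione conjugates, rose by 0.52, and *Slc3a2*, the heavy chain of cystine and amino acid exchangers, by 0.41. The light chain of the cystine exchanger, *Slc7a11*, had only 1 to 10 reads per library and did not pass the test. *Gpx7*, a peroxidase of the endoplasmic reticulum, fell by 0.61 on the log2 scale, from 1002 ± 30.1 to 656 ± 51.5. The 5 genes named as changed had limma adjusted p-values of 0.0077 or less and no overlap between groups, and were named for passing the test. Among all 16 listed genes, 9 had no overlap, against 49.0% of genes with a mean of at least 100 and 29.6% of all genes. *Ggt5* was not called without vehicle replicate 3 (limma adjusted p of 0.055), corticosterone replicate 3 (0.064) or the variance trend (0.084). Of the *Gpx4* 31-base stretches 38.9% recur in other transcripts, chiefly those of a pseudogene.

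In the thioredoxin and peroxiredoxin list, 3 of 17 genes rose, 3 fell and 11 did not pass (median log2 fold change of 0.01). The share called, 35.3%, was close to the background of 32.6%, and 16 of the 17 had a mean of at least 100. *Msrb3*, a reductase of methionine sulfoxide, rose by 0.33 on the log2 scale, *Txn2*, the mitochondrial thioredoxin, by 0.26, and *Prdx6*, a peroxiredoxin that also repairs oxidized phospholipids, by 0.21. *Sesn3*, a sestrin that links oxidative and nutrient stress to mTORC1, fell by 0.87 on the log2 scale, from 3805, 4203 and 4019 to 2123, 2226 and 2240.1. It was the largest change of that list in either direction among the genes called, and every corticosterone library lay far below the vehicle libraries. Its relative *Sesn2*, itself an NRF2 and stress target, fell by 0.33, and these 5 changes had limma adjusted p-values of 0.0047 or less. Without the variance trend *Sesn3* was called, but not *Msrb3*, *Txn2*, *Prdx6* or *Sesn2* (limma adjusted p-values of 0.066, 0.11, 0.13 and 0.14). *Txnip*, which binds and inhibits thioredoxin, had -0.14 with a limma adjusted p of 0.041, a call that was lost whichever of 5 single libraries was left out (vehicle replicates 1, 2 and 3, limma adjusted p-values of 0.066, 0.10 and 0.19, and corticosterone replicates 1 and 2, 0.19 and 0.18), and without the variance trend (0.31). Of its 31-base stretches 17.4% recur in transcripts of other genes.

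The reduction of glutathione and thioredoxin draws on NADPH, and in the NADPH supply list 6 of 18 genes rose, 3 fell and 9 did not pass (median log2 fold change of 0.11). Called genes made up 50.0% of the list, against 16.7% of all genes and 32.6% of genes with a mean of at least 100. As 15 of the 18 reached that level, neither background covers a like set, and the differences were not tested. *Pgd*, which makes NADPH in the pentose phosphate pathway, rose by 0.68 on the log2 scale, from 1811 ± 30.9 to 2895 ± 69.3 (SD, n = 3). *Idh1*, the cytosolic isocitrate dehydrogenase, rose by 0.66, *Taldo1* of the pentose phosphate pathway by 0.37, and *Mthfd1* of folate metabolism by 0.28. *Me1*, the cytosolic malic enzyme and a known NRF2 target, fell by 0.43, from 2106 ± 15.7 to 1567 ± 21.5. *Nadk2*, the mitochondrial NAD kinase, fell by 0.58, and *Me2*, a mitochondrial malic enzyme, by 0.33. These 7 genes did not overlap between groups, with limma adjusted p-values of 0.0041 or less, but *Nadk2* and *Mthfd1* were not called without the variance trend (0.064 and 0.10). Of the *Me1* 31-base stretches 36.9% recur in transcripts of other genes, and of those of *Taldo1* 14.0%.

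Heme oxygenase releases iron, and in the heme and iron list 3 of 20 genes rose, 4 fell and 13 did not pass (median log2 fold change of 0.02). The share called, 35%, was close to the background of 32.6%, and 19 of the 20 had a mean of at least 100. *Slc40a1*, the iron exporter ferroportin, fell from 98.9, 192 and 101 to 27.8, 33.1 and 20.5, a log2 fold change of -2.22 ± 0.26 (SE). *Tfrc*, the transferrin receptor that takes up iron, fell from 718, 707 and 746 to 375, 385 and 316, a log2 fold change of -1.02 ± 0.08 (SE). The groups overlapped for neither transporter, and vehicle replicate 2 was the high library for *Slc40a1*. The ferritin subunits that store iron rose, *Ftl1* by 0.44 and *Fth1* by 0.25 on the log2 scale, although 64.2% of the *Ftl1* 31-base stretches recur in pseudogenes. *Slc48a1*, a heme transporter, rose by 0.27. *Ireb2*, an iron-regulatory protein that controls ferritin and *Tfrc* mRNA, fell by 0.28, and *Ppox* of heme synthesis had -0.16. *Ppox* was not called without vehicle replicate 2 (limma adjusted p of 0.050), vehicle replicate 3 (0.057), corticosterone replicate 1 (0.10) or corticosterone replicate 3 (0.062), and 16.2% of its 31-base stretches recur in another gene. Without the variance trend the calls of *Slc40a1* and *Tfrc* held, and those of *Ftl1*, *Fth1*, *Slc48a1*, *Ireb2* and *Ppox* were lost (limma adjusted p-values of 0.059, 0.076, 0.12, 0.086 and 0.22).

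**Figure D4:**
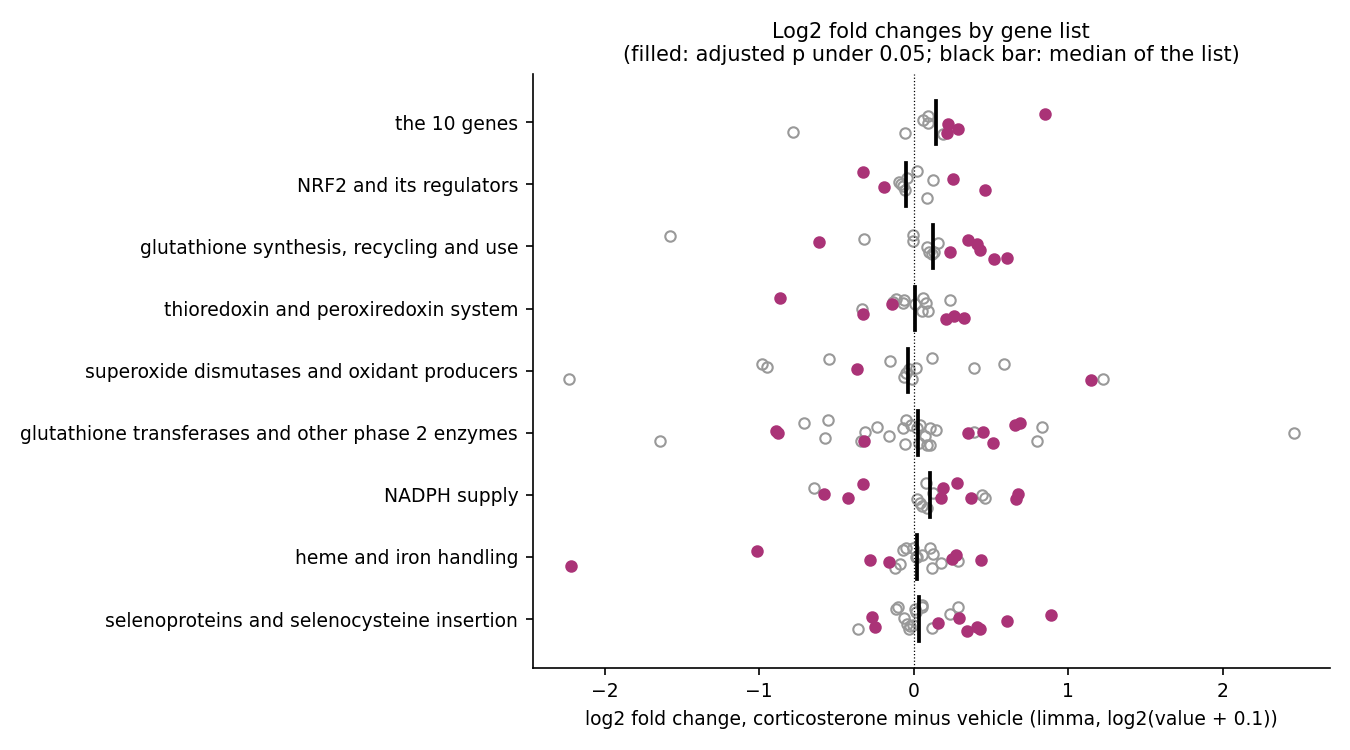
Log2 fold change, corticosterone minus vehicle, of every measured gene of the 10 members and of 8 lists of related genes, with filled points for an adjusted p under 0.05 and a black bar at the median of each list. The medians lie between -0.05 and 0.14, with calls in both directions in every list except that of the 10 genes.

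**Figure D5:**
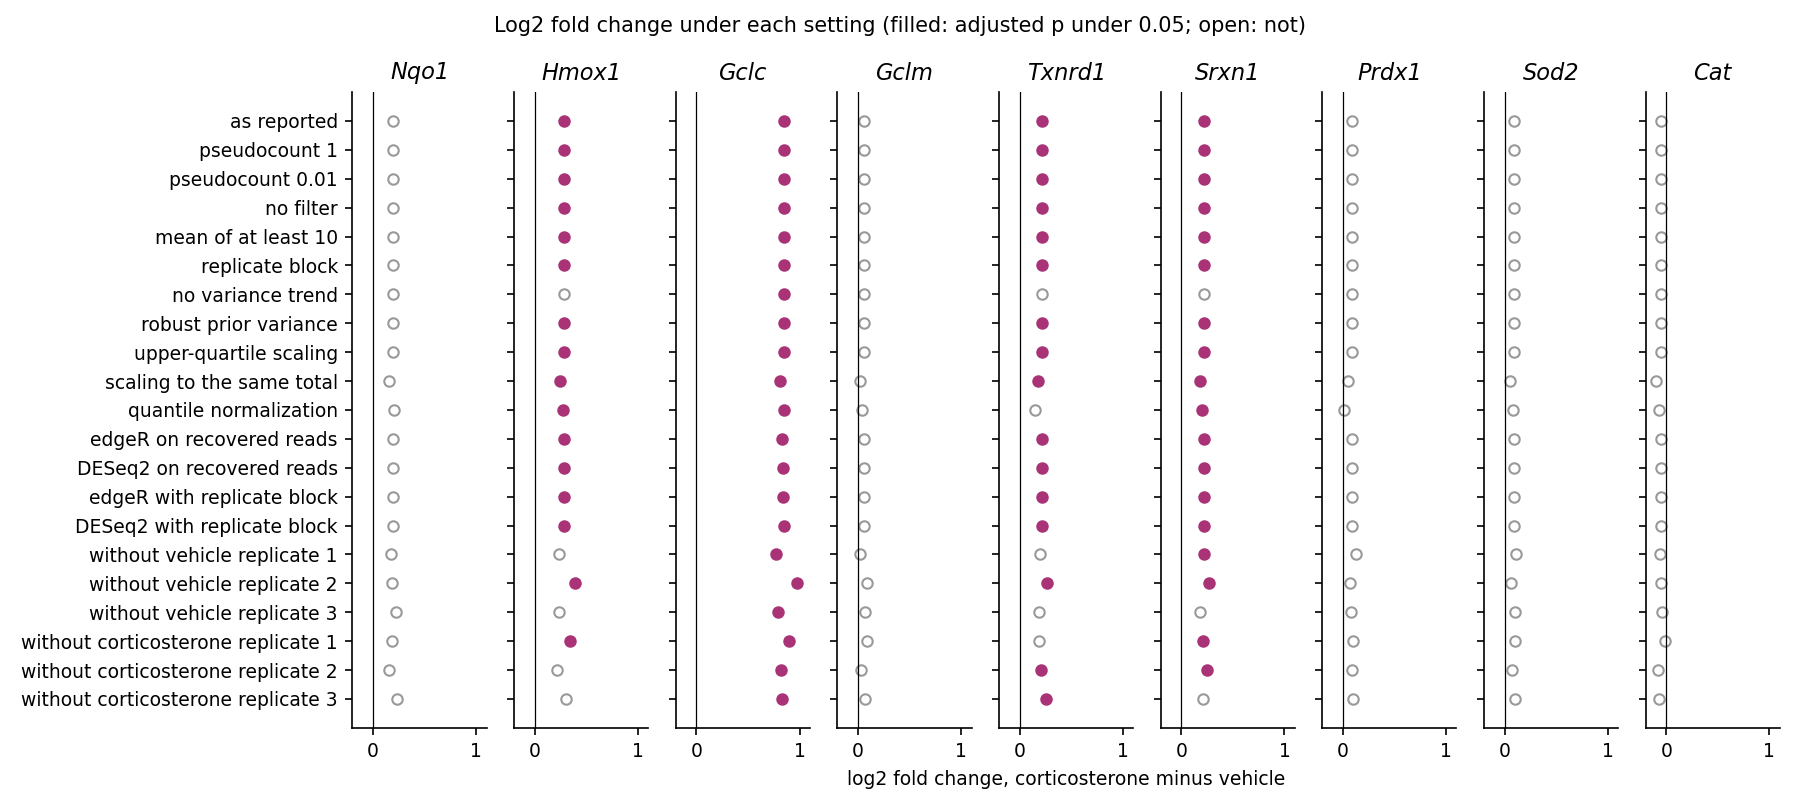
Log2 fold change of 9 of the 10 genes (rows are settings, filled points have an adjusted p under 0.05) as reported and under 20 alternatives, *Gpx3* being left out because 3 settings gave it no value. *Gclc* is filled in every row, between 0.77 and 0.98, while *Hmox1*, *Txnrd1* and *Srxn1* lose the call in some rows and keep their direction.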

How the data were processed

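RNA-seq was performed on differentiated MC3T3 cells, 3 vehicle and 3 corticosterone cultures. Per the labels, the libraries were made with the NEBNext Ultra RNA kit and the processing notes name mm10. The aligner, counting program and strand setting are not given in the sources used here. The authors deposited 1 non-negative signal per gene and library, named FPKM, but 100% of the values in each library are whole multiples (within 0.01) of 1 step, which means that whole reads were scaled by a single factor in each library before the file was deposited.

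The main test was limma 3.58.1 (eBayes with a variance trend) on log2(value + 0.1) over all 24016 genes, with Benjamini-Hochberg adjustment, and fold changes are on that scale. The filter on a mean of at least 0.1 removed no gene. This test had been set for FPKM values and was kept. Single members were also compared by an exact permutation test. The members, gene lists and markers were chosen with earlier results of these data known. From each list, at most the 4 largest called changes in each direction are named, besides *Nfe2l2*, *Keap1*, *Bach1* and *Nfe2l1*. Alternatives were other pseudocounts, filters, scalings and variance settings, the replicate number as a block, edgeR 4.0.16 and DESeq2 1.42.0 on the recovered reads, and leaving out each library. Symbols, coordinates and exon lengths came from GENCODE (GRCm38), which matched 23983 identifiers, and promoters from RefSeq. The level of 3 reads covers counting error only.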

Additional observations from a re-analysis of the deposited data

How the results depend on the processing

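Of 58 named genes 50 were called, and 24 of these were called in all 20 alternatives, *Gclc* among them. Of the 26 that lost the call somewhere, 14 lost it only without the variance trend, and no named gene changed direction. That setting gave 873 higher and 760 lower genes and 1 member, against 2040, 1970 and 4, and past the fold threshold 311 and 342, against 331 and 337. Leaving out single libraries gave 1419 to 1873 higher genes, 1148 to 1611 lower genes, 253 to 331 higher and 204 to 321 lower past the fold threshold, and 1 to 4 members, with the fewest members and the most lost calls of named genes (10) without vehicle replicate 3. On the recovered reads, edgeR called 2219 higher and 2108 lower genes and DESeq2 1904 and 1730, and both called the same count of 4 members. With libraries scaled to the same total, 1703 genes were higher and 2521 lower.

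The labels give both groups replicate numbers 1 to 3 without saying that they pair cultures. Deviations from the group means of same-numbered libraries correlated at 0.067, 0.0877 and 0.0157 over 10558 genes, so the numbers were not taken as pairs. The replicate block in limma gave 2012 higher and 1893 lower genes, 297 and 294 past the fold threshold, and 4 members. DESeq2 with the replicate block gave 1536 higher and 1254 lower genes, 239 and 198 past the fold threshold, and 4 members, and it did not call *Bach1*, *Ggt5*, *Me2* or *Sepsecs* (adjusted p-values of 0.063, 0.094, 0.080 and 0.067). *Gpx3* had no value with a mean of at least 10 or in edgeR. The cause of these differences was not tested. Depth limits *Gpx3* (2 to 12 reads).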

Other observations

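Among superoxide dismutases and enzymes that produce oxidants, 16 of 19 genes were in the table, 1 rose, 1 fell and 14 did not pass (median log2 fold change of -0.04), and 8 of the 16 had a mean of at least 100. The share called was 12.5%, against 16.7% of all genes and 32.6% of those with a mean of at least 100. *Xdh*, the xanthine dehydrogenase that can release superoxide and hydrogen peroxide while degrading purines, rose from 2520.2, 3039 and 2624 to 6065, 6123 and 5919 normalized counts. All corticosterone libraries lay above all vehicle libraries, with a log2 fold change of 1.15 ± 0.06 (SE) and a limma adjusted p of 4.3e-10. *Sod3*, the extracellular superoxide dismutase, fell by 0.37 ± 0.07 (SE) on the log2 scale, from 947 ± 52.6 to 734 ± 49.4 (SD, n = 3), with a limma adjusted p of 0.00066, a call that was lost without the variance trend (0.086). Of the *Xdh* 31-base stretches, 14.4% recur in transcripts of other genes.

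In the list of glutathione transferases and other phase 2 enzymes, 32 of 34 genes were in the table, 5 rose, 3 fell and 24 did not pass (median log2 fold change of 0.03). The share called was 25.0% of all 32, against 16.7% of all genes. Of the 32, 20 had a mean of at least 100, where the background is 32.6%. The share of 25.0% includes genes below that level and is not a like comparison with 32.6%. *Gsto1*, an omega-class glutathione transferase, rose by 0.69 on the log2 scale, the exporters *Abcc4* and *Abcc1* by 0.65 and 0.51, and the microsomal transferase *Mgst2* by 0.45. *Aldh3a1*, an aldehyde dehydrogenase, fell by 0.89, *Gstt1*, a theta-class transferase, by 0.88, and *Ptgr1*, which reduces prostaglandin and leukotriene products, by 0.32. These 7 changes had limma adjusted p-values of 0.0014 or less, but *Mgst2* and *Ptgr1* were not called without the variance trend (0.066 and 0.052).

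Among selenoproteins and the genes that insert selenocysteine, 7 of 24 rose, 2 fell and 15 did not pass (median log2 fold change of 0.03). The share called, 37.5%, was close to the 32.6% of genes with a mean of at least 100, and the 7 include *Gpx1* and *Gpx4*, already counted with the glutathione genes. *Selenop*, the secreted selenium carrier, rose from 1100.4 ± 18.2 to 2040 ± 37.1 (SD, n = 3), a log2 fold change of 0.89 with a limma adjusted p of 9.2e-10. *Selenom* of the endoplasmic reticulum rose by 0.41 on the log2 scale. *Sepsecs*, the synthase that makes selenocysteine on its tRNA, had -0.27 and *Selenoh* -0.25, calls that were lost without vehicle replicate 3 (limma adjusted p-values of 0.059 and 0.072) and, for *Selenoh*, without corticosterone replicate 3 (0.063) or, for *Sepsecs*, without corticosterone replicate 1 or 2 (0.053 and 0.051). Without the variance trend neither was called (limma adjusted p-values of 0.12 and 0.15). Of the *Selenop* 31-base stretches 15.1% recur in transcripts of other genes, chiefly those of *Ccdc152*.

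*Slc7a11*, the light chain of the cystine exchanger that feeds glutathione synthesis and a textbook NRF2 target, was chosen after its values were seen. Its mean normalized count was 5.84 with vehicle and 1.93 with corticosterone, the latter under the level of 3 reads. The groups did not overlap, and the log2 fold change was -1.58 with a 95% interval of -3.30 to 0.14. A change was not detectable at this depth (limma adjusted p of 0.24).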
